A study of Mus musculus with 6 samples.

Results

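Neuromesodermal progenitors (NMPs) made from mouse embryonic stem cells (ESCs) were described here in their untreated state, from the 2 samples that received only the DMSO vehicle. These are 2 of the 6 samples of the series, and the other 4 received retinoic acid (RA) and were not compared. All 20631 genes of the table were considered, and the RPKM of a gene (reads scaled by transcript length and sequencing depth) is the sum over its transcripts. The ESCs, whose strain is given as 129 R1 by the labels and as C57BL/6 by the methods, were grown on embryonic fibroblasts, then without serum or retinoids for 2 days with bFGF and for 1 day with bFGF and the WNT agonist CHIR99021. On day 3 both factors were taken away and the cells stood for 2 h with DMSO before RNA was collected. The 2 samples are separate culture dishes of one experiment, called technical replicates by the methods, so that each SD (n = 2) below is the spread between dishes and not between independent derivations. Overlap or separation of genes by their dishes is likewise limited to this spread, and leaves out errors of level that both dishes share.

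NMPs lie in the caudal epiblast of the embryo, next to the primitive streak, and give rise both to spinal cord and to the presomitic mesoderm from which somites form. They are recognized by co-expression of the mesodermal factor *T* (Brachyury) and the neural factor *Sox2*. FGF and WNT signals hold them in this state in the embryo. RA made by presomitic mesoderm and somites promotes their neural differentiation, and the authors propose that the presomitic lineage needs it as well. Cells that leave the niche switch on *Tbx6* and *Msgn1* on the way to mesoderm, or *Sox1* and *Pax6* on the way to neural tube.

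Estimated counts summed to 42029348 in dish 1 and 34341789 in dish 2. At these depths 3 counts of a transcript as long as that of *Sox1* equal an RPKM of 0.0144 in dish 1 and 0.0176 in dish 2. A gene was taken as expressed with an RPKM above 1 in both dishes, which held for 10996 genes, or 53.3% of all. An average RPKM under 0.1 was found for 5509 genes, or 26.7% of all, and such genes are termed silent below, a limit on level in the whole dish and not proof of absence. Of the coding genes 58.2% were expressed, and of the non-coding genes 16.6%. All counts of gene groups below are to be read against these shares. RNA came from whole dishes, so that a few cells with much RNA of a gene and many cells with little of it cannot be told apart.

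*T* was the most abundant of the NMP markers by far. Its RPKM was 380.1 in dish 1 and 370.3 in dish 2, an average of 375 ± 6.98 (SD, n = 2), which placed it 144th among coding genes. *Nkx1-2*, a homeobox gene of caudal progenitors, had 39.3 and 38.9 RPKM. *Mixl1*, a homeobox gene of the primitive streak, had 36.6 and 35.4 RPKM. The dishes of *Nkx1-2* did not overlap those of *Mixl1*, and both genes stood about midway, on a log scale, between *T* and the next pair. *Sox2* had 5.21 and 5.20 RPKM, and *Cdx2*, which directs posterior identity, had 4.90 and 5.29 RPKM. The values of *Sox2* lay within the range of those of *Cdx2*, so that no order can be given between them. The name NMP follows the authors, and the identity of the cells was not tested here. All 5 markers passed the limit for expression in both dishes, as did 53.3% of all genes. The ratio of *T* to *Sox2* RPKM was 73.0 in dish 1 and 71.2 in dish 2 (72.1 ± 1.22 (SD, n = 2)). These markers are at chr17:8434423-8442496 (*T*), chr7:132596239-132599637 (*Nkx1-2*), chr1:180693048-180697034 (*Mixl1*), chr3:34650005-34652460 (*Sox2*) and chr5:147300900-147307249 (*Cdx2*) of mm10, and each has 1 transcript in the table.

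**Figure D1:**
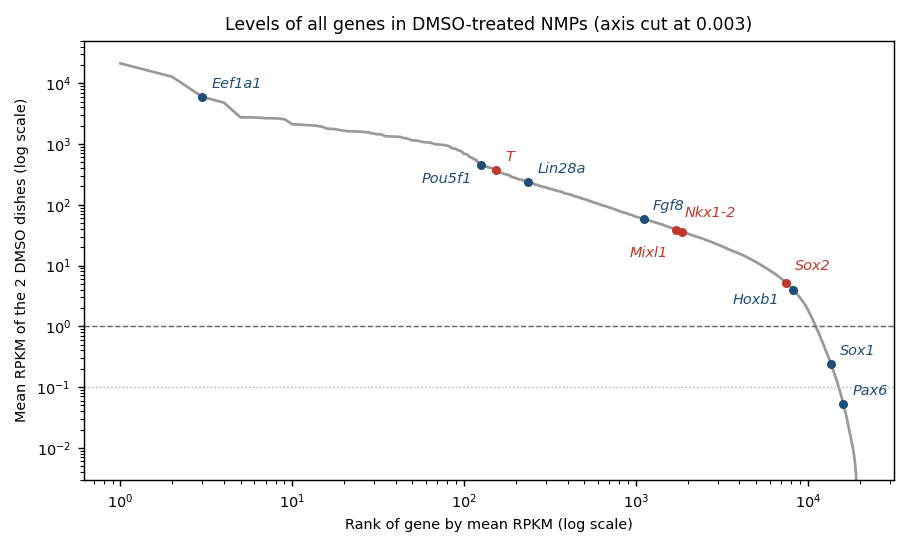
Average RPKM of the 2 DMSO dishes (vertical axis, log scale) against the rank of the gene (horizontal axis, log scale), with the NMP markers in red, other named genes in blue, and lines at an RPKM of 1 (dashed) and 0.1 (dotted). *Pou5f1* and *T* sit at rank 126 and 154 of all genes, *Nkx1-2* and *Mixl1* at 1709 and 1855, and *Sox2* at 7480.

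The 250 bases before the start of 4 NMP markers are shown with those of 2 genes without a read in either dish, *Wnt1* and the kidney gene *Umod*, as examples chosen with their levels known. They come from RefSeq (GRCm38.p6, the coordinates of mm10), with a start of *Sox2* 10 bases before that given above. They run 5′ to 3′ on the strand of the gene and have CG pairs in capitals. They are at chr17:8434173-8434422 (*T*, plus strand), chr7:132599638-132599887 (*Nkx1-2*, minus), chr3:34649745-34649994 (*Sox2*, plus), chr5:147307250-147307499 (*Cdx2*, minus), chr15:98789607-98789856 (*Wnt1*, plus) and chr7:119479263-119479512 (*Umod*, minus).
T: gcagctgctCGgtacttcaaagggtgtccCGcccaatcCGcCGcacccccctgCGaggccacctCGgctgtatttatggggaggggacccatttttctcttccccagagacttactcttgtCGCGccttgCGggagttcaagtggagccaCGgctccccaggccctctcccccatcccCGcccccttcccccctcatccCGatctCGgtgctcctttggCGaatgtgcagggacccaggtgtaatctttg
Nkx1-2: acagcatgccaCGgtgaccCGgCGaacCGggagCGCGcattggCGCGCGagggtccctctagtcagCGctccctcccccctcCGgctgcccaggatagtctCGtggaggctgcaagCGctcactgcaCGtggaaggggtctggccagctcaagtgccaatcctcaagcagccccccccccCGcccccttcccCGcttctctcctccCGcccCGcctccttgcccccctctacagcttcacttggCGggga
Sox2: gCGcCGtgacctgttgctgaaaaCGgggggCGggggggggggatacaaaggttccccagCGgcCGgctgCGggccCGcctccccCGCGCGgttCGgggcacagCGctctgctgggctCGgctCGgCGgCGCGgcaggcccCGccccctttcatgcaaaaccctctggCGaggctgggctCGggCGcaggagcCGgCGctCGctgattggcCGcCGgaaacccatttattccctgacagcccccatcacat
Cdx2: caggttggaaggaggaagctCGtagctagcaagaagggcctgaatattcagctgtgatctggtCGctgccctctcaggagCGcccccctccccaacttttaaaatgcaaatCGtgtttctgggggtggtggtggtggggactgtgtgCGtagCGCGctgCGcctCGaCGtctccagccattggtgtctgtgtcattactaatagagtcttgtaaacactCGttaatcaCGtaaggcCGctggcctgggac
Wnt1: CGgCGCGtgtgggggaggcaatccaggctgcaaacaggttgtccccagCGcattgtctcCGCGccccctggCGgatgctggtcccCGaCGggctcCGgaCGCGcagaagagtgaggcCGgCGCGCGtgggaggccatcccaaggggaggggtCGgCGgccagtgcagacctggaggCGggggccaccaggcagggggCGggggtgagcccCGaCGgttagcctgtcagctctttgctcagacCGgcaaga
Umod: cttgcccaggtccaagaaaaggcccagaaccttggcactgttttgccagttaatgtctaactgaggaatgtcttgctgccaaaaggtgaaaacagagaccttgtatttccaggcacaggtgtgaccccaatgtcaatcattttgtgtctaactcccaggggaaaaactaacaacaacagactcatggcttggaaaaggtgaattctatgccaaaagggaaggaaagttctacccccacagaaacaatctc
There were 14 CG pairs for *T*, 19 for *Nkx1-2*, 27 for *Sox2*, 13 for *Cdx2*, 23 for *Wnt1* and 0 for *Umod*, and the median over 14324 coding genes was 13. The letters CTTTGA, the core that TCF/LEF factors of the WNT pathway are known to prefer, were searched on both strands. Of these 6 regions they were found for *T*, on the strand opposite to the gene with the first of the 6 letters (tcaaag on the printed strand) 234 bases before the start. Of the regions of the 14324 coding genes, 12.1% hold these letters, and their presence is no evidence of binding.

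Genes of the caudal epiblast outside the 5 markers were mostly expressed, 12 of 15. *Fgf8*, the FGF ligand of the caudal niche, had 59.4 and 57.3 RPKM, and *Cyp26a1*, which breaks down RA there, had 52.6 and 52.3 RPKM. The WNT ligands of the niche were lower, with 21.0 and 21.8 RPKM for *Wnt8a* and 7.52 and 7.32 RPKM for *Wnt3a*. Levels thus spread over a wide range within the niche genes, and neighbors in their order were separated by the dishes in all but 3 of 14 pairs. *Sp5*, a target of WNT signaling, had 18.1 ± 1.09 RPKM (SD, n = 2), *Evx1* 10.1 ± 0.0752, *Sp8* 6.82 ± 0.239 and *Cdx1* 6.36 ± 0.468. The remaining *Cdx* gene, *Cdx4*, was silent with 7 and 4 counts, and so were *Epha5* and *Tbx4*.

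All 14 genes listed for the primitive streak were expressed, with a median of 18.4 RPKM. *Tdgf1* (Cripto), the coreceptor of Nodal, led with 159.8 and 149.1 RPKM. *Mesp1*, a factor of the first mesoderm, had 47.9 and 49.4 RPKM, and *Eomes*, a factor of streak mesoderm and endoderm, had 48.3 and 47.1 RPKM. The latter pair overlapped between dishes and cannot be ordered. *Gsc*, the Goosecoid gene of the anterior streak, had 28.6 and 30.1 RPKM and *Lhx1* 23.0 and 24.3 RPKM. *Snai1*, which represses *Cdh1* as cells leave the epiblast, had 11.3 ± 0.689 RPKM, and *Mesp2* was lowest with 1.86 ± 0.131 RPKM.

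Of 18 genes for presomitic mesoderm and somites 8 were expressed, and these were genes of the presomitic step in the main. The Notch ligand *Dll3* had 28.7 and 29.5 RPKM and *Msgn1* 27.0 and 27.8 RPKM. *Dll1* had 17.9 ± 0.479 RPKM, *Lfng*, which modifies Notch, 15.4 ± 0.393, and *Tbx6* 8.59 ± 0.629. Levels of *Msgn1* and *Tbx6* differed 2.99-fold in dish 1 and 3.41-fold in dish 2. *Foxc1* of the same list was expressed as well, with 4.76 and 4.40 RPKM. Several genes of formed somites were low or silent. *Meox1* had an average of 0.102 RPKM, *Pax3* 0.0221, *Pax1* 0.0326 and *Meox2* 0.00414, the last from a single count in dish 1.

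Neural genes were expressed less widely, 6 of 20. *Nes*, the intermediate filament nestin, had 52.2 and 51.5 RPKM and *Zic2* 32.3 and 29.7 RPKM. *Irx3* and *Sox3*, a close relative of *Sox2*, overlapped at 4.90 and 4.89 RPKM against 5.01 and 4.76 RPKM. None of these 4 genes is specific to the neural tube. The early neural plate factor *Sox1* had 0.245 and 0.228 RPKM, so that *Sox2* was 21.2-fold and 22.8-fold higher in the same dishes. *Pax6* was silent with an average of 0.0524 RPKM, *Olig2* with 0.0120 and *Neurog2*, a driver of neuron formation, with 0.0369. *Zic1* was silent at 0.0665 RPKM although *Zic2* of the same family was not. Of 12 forebrain and midbrain genes only *Otx2* was expressed, with 28.7 and 27.4 RPKM. *Otx2* also belongs to the epiblast before patterning, and *Six3*, *Rax* and *En1* of the anterior neural plate each averaged under 0.1 RPKM.

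Pluripotency genes were split by level. Of 26 listed 17 were expressed, and *Pou5f1* (Oct4) had 432.1 and 457.7 RPKM, above *T* in both dishes. The RNA-binding protein gene *Lin28a* had 237.8 and 232.5 RPKM. *Nanog* was far lower with 20.4 and 18.1 RPKM, a ratio of *Pou5f1* to *Nanog* of 21.2 and 25.3. *Nanog* is a sum over 4 transcripts, and with the highest transcript in its place the average was 9.82 RPKM for *Nanog* and 442 for *Pou5f1*. Factors of the naive state, which ESCs hold before they are primed for differentiation, spread from the middle of the list to its bottom. *Zfp42* (Rex1) had 5.11 ± 0.522 RPKM and *Klf5* 3.79 ± 0.375, around the list median of 4.71, whereas *Tfcp2l1* had 0.9595 ± 0.0387, *Klf4* 0.562 ± 0.0730, *Esrrb* 0.411 ± 0.0329, *Prdm14* 0.193 ± 0.0663 and *Tbx3* 0.121 ± 0.000641. None of the 26 was silent.

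By contrast, all 15 genes of the primed epiblast were expressed, with a median of 18.7 RPKM. *Dnmt3b*, a DNA methyltransferase of the epiblast, had 137.1 RPKM in both dishes, 11.5-fold and 10.9-fold above *Dnmt3a*. Their highest single transcripts had 68.9 and 6.40 RPKM. *Fgf5*, the classical marker of this state, had 49.3 and 48.2 RPKM. *Pou3f1* (Oct6) had 7.85 ± 0.394 RPKM, and *Sfrp2* was lowest with 4.68 ± 0.609.

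Of the genes of definitive endoderm and node 10 of 19 were expressed, or 52.6%, a share near that of all genes. *Foxa2* had 13.9 and 14.96 RPKM, *Sox17* 6.84 and 6.67 RPKM and *Gata4* 5.49 and 6.25 RPKM. *Cer1*, a secreted inhibitor of Nodal, BMP and WNT made by endoderm, had 16.3 ± 1.34 RPKM. Node and notochord were represented by *Chrd* (5.58 ± 0.107 RPKM) and *Foxj1* (3.90 ± 0.0794 RPKM), whereas *Noto* stayed below 1 in both dishes and *Shh* was silent with 2 counts in each. Of the genes of later or visceral endoderm, *Hnf4a* and *Afp* were silent as well, whereas *Ttr* averaged 0.340 RPKM.

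Other lineages had few expressed members. In the trophoblast and extraembryonic list these were 5 of 14, led by the keratins *Krt8* (145 ± 0.840 RPKM) and *Krt18* (75.2 ± 1.77 RPKM), which simple epithelia use widely. *Tfap2c* of trophoblast had 1.95 and 1.84 RPKM and *Tead4* 1.03 and 1.08, while 7 genes lay between 0.1 and 1 RPKM on average and *Elf5* and *Gata3* were silent. *Amn* and *Cubn*, receptor genes of visceral endoderm, were among the 7 with an average of 0.722 and 0.658 RPKM. In the list of neural crest and surface ectoderm 3 of 13 were expressed, *Grhl2*, *Grhl3* and *Msx1*, none above 4.45 RPKM in a dish. *Sox10* of neural crest averaged 0.179 RPKM. In that of lateral plate, heart and blood they were 3 of 20, *Actc1* with 7.61 ± 0.159 RPKM, *Etv2* with 2.89 ± 0.473 and *Kdr*, the VEGF receptor of blood and vessel precursors, with 2.78 ± 0.0679. *Etv2* and *Kdr* could not be ordered.

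Fibroblast markers were followed because the ESCs had been kept on embryonic fibroblasts. Of 11 listed 5 were expressed, and their summed RPKM was 51.0 in dish 1 and 47.3 in dish 2. *Tagln* supplied most of it with 35.0 and 31.4 RPKM, followed by *Acta2* with 8.52 and 8.21, both genes of smooth muscle type actin fibers that many cells use. The collagen gene *Col1a2* had 2.63 and 2.67 RPKM and *Col1a1* 0.653 and 0.780. The matrix genes *Dcn* and *Lum* were near 0 with an average of 0.109 and 0.0207 RPKM. How much of any level above came from remaining fibroblasts was not tested.

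**Figure D2:**
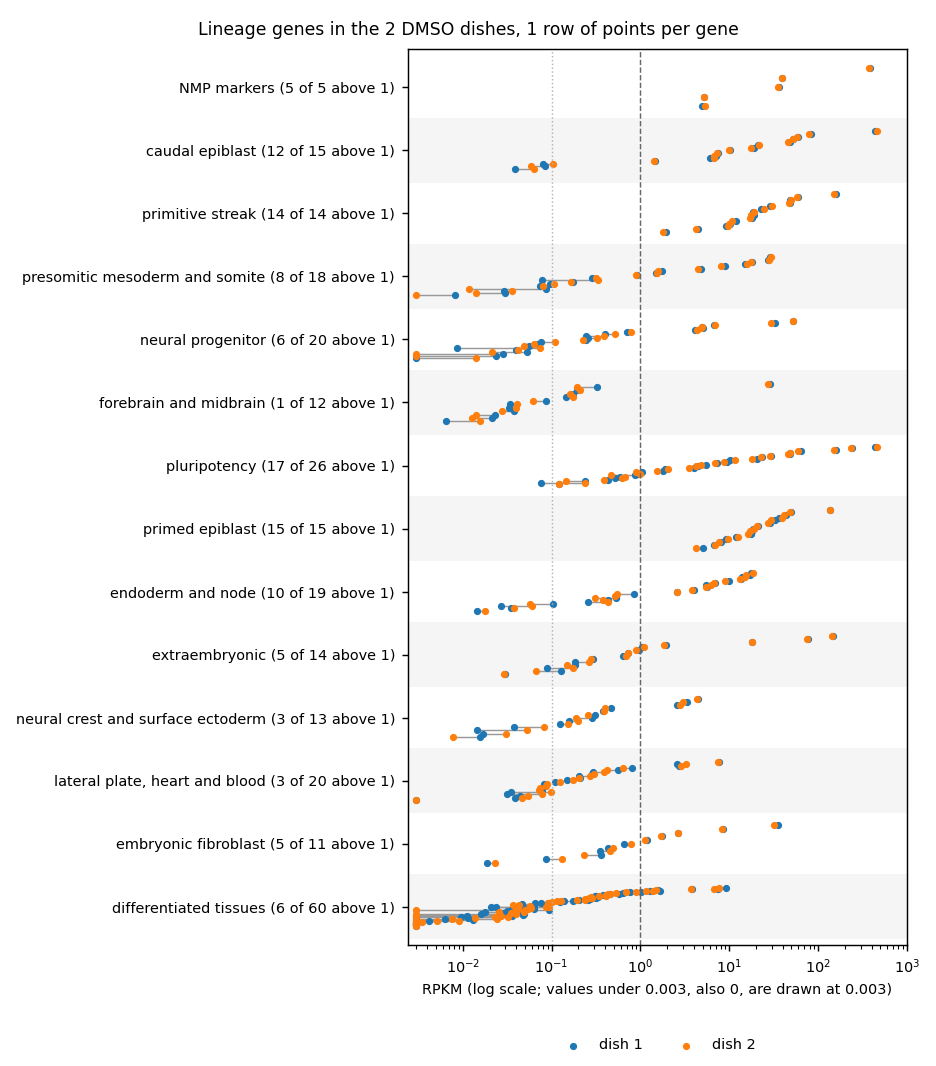
RPKM (log scale) of each gene in dish 1 (blue) and dish 2 (orange), joined by a line, by lineage list, with lines at an RPKM of 1 (dashed) and 0.1 (dotted) and the number of genes above 1 in both dishes beside each list. All genes of the streak and primed epiblast lists lie above 1, whereas 6 of 20 neural and 6 of 60 differentiated tissue genes do.

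Of the 22 FGF family genes listed under ligands 7 were expressed, and whether each is secreted was not considered. *Fgf8* and *Fgf5* stood above the rest, and *Fgf3* had 12.4 RPKM in both dishes. The order of the first pair rests on the sum over transcripts, since the highest transcript of *Fgf8* averaged 19.3 RPKM and that of *Fgf5* 39.6. *Fgf15* had 7.77 ± 0.0180 RPKM, *Fgf4* 4.31 ± 0.153, *Fgf17* 2.44 ± 0.224 and *Fgf13* 1.66 ± 0.0246. *Fgf2*, the gene of the bFGF that had been supplied in the medium, was silent in the cells with 3 counts in dish 1 and 1 in dish 2. Among the receptors *Fgfr1* led with 17.6 and 16.9 RPKM, 14.9-fold and 14.7-fold above *Fgfr2*. *Fgfr3* lay at the limit with 0.988 and 1.09 RPKM and *Fgfr4* averaged 0.114. Of 11 targets and feedback inhibitors of the ERK branch of the pathway 10 were expressed. *Dusp6*, a phosphatase that acts on ERK, had 83.4 and 79.9 RPKM, *Etv5* 36.0 and 32.7, *Etv4* 28.5 in both dishes and *Spry2* 19.6 ± 0.519 on average. The immediate-early gene *Egr1* was lowest with 1.03 and 0.900 RPKM.

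Ligands of the WNT pathway were expressed in 9 of 19 cases. After *Wnt8a* came *Wnt5b* with 13.1 and 13.6 RPKM and *Wnt3*, which the embryo needs to form a streak, with 9.13 and 9.54. *Wnt3a* and *Wnt5a* (7.21 ± 0.227 RPKM) overlapped. *Wnt1* had no read in either dish, where 3 counts would have given 0.0246 and 0.0299 RPKM. Receptors and coreceptors were expressed in 14 of 17 cases, led by *Ryk* (29.8 ± 1.36 RPKM), *Fzd7* (20.9 ± 0.287), *Lgr4* (18.99 ± 0.227) and *Fzd10* (18.1 ± 1.01). The coreceptors *Lrp6* and *Lrp5* had 11.9 ± 0.292 and 10.3 ± 0.368 RPKM, whereas *Lgr5* averaged 0.362. With the highest single transcript *Ryk* had 17.0 RPKM, below *Fzd7*. Of the R-spondins, which boost WNT signals through Lgr receptors, *Rspo3* had 13.3 RPKM in both dishes and *Rspo2* was silent.

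Inhibitors of WNT were expressed in 7 of 13 cases. *Frzb*, a secreted protein that binds WNT ligands, exceeded every WNT ligand with 29.3 and 29.5 RPKM, and *Dkk1* had 2.90 and 2.51 RPKM. Inside the cell, *Ctnnb1* (β-catenin) had 242.2 and 240.3 RPKM. The DNA-binding partners *Lef1* (16.4 ± 0.923 RPKM) and *Tcf7* (15.8 ± 1.02 RPKM) overlapped, and both were far above *Tcf7l1* and *Tcf7l2*, at 1.28 ± 0.132 and 1.17 ± 0.0320 RPKM. With the highest single transcript *Lef1* had 10.8 RPKM, below *Tcf7*, and *Tcf7l1* and *Tcf7l2* had 0.782 and 0.300. *Axin2*, a feedback target of the pathway, had 11.0 ± 0.401 RPKM.

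In the Nodal and BMP pathways 10 of 16 ligands were expressed. *Lefty2* and *Lefty1*, ligand-like inhibitors that Nodal itself induces, had 36.0 and 39.1 RPKM and 20.9 and 22.0 RPKM. *Nodal* had 17.8 and 16.9 RPKM and *Gdf3* 1.78 and 1.54. BMP ligands were below *Nodal*, with 8.56 ± 0.510 RPKM for *Bmp7*, 1.44 ± 0.0352 for *Bmp4* and 1.44 ± 0.0216 for *Bmp2*. Activin chains were lower still, with 0.191 RPKM for *Inhbb* and a silent *Inhba*. Receptors were expressed in 10 of 12 cases, *Bmpr1a* with 23.9 ± 0.575 RPKM, *Acvr2b* with 13.2 ± 0.260 and *Acvr1b* with 7.06 ± 0.123. *Fst* (follistatin), which binds activin, was the most abundant secreted inhibitor with 110.5 and 103.5 RPKM, or 58.2 on average for its highest transcript, while *Nog* averaged 0.416. The BMP targets *Id1*, *Id3* and *Id2* had 16.1 ± 0.446, 14.4 ± 0.275 and 6.63 ± 0.172 RPKM, and *Id4* stayed below 1.

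Notch genes were expressed in 13 of 17 cases. *Jag1* had 12.6 and 12.7 RPKM, and the receptors *Notch1*, *Notch2* and *Notch3* lay between 4.83 and 6.98 RPKM in every dish. *Hes1*, a target in many tissues, had 34.0 and 32.5 RPKM, whereas *Hes7* of the somite clock had 1.49 and 1.52 and the neural target *Hes5* 0.244 and 0.390. For Hedgehog, none of the 3 ligands was expressed, against 5 of 6 receptors and coreceptors. *Smo*, which transduces the signal, had 38.3 and 37.1 RPKM, *Ptch1*, the receptor, 6.90 and 6.82, and *Gli3*, mainly a repressor, 3.90 and 3.94. *Gli1*, a target of active signaling, had 1.12 and 1.26 RPKM.

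Genes around RA were unevenly expressed in these cells, which had met no added RA. Of the enzymes that make RA, *Rdh10*, which makes retinaldehyde, had 10.1 and 9.76 RPKM. *Aldh1a2* (Raldh2), which makes RA from it in the trunk, had 0.986 and 0.637 RPKM, and *Aldh1a1* and *Aldh1a3* were silent. Of the enzymes that break RA down, *Cyp26a1* was 53.3-fold and 82.0-fold above *Aldh1a2*, *Cyp26c1* averaged 0.488 RPKM and *Cyp26b1* was silent with 7 and 3 counts. Receptors were expressed in 5 of 6 cases. *Rxrb* had 16.9 ± 0.0959 RPKM, *Rarg* 10.9 ± 0.335, *Rxra* 8.15 ± 0.361, *Rxrg* 4.36 ± 0.000243 and *Rara* 3.42 ± 0.184, and no neighbors among these overlapped. With the highest single transcript *Rarg* (8.91 RPKM) came before *Rxrb* (8.60), and *Rxra* and *Rara* had 4.16 and 1.62. *Rarb*, itself a target of RA, averaged 0.237 ± 0.0322 RPKM. The cellular binding proteins *Crabp2* and *Crabp1* had 23.0 and 12.4 RPKM.

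**Figure D3:**
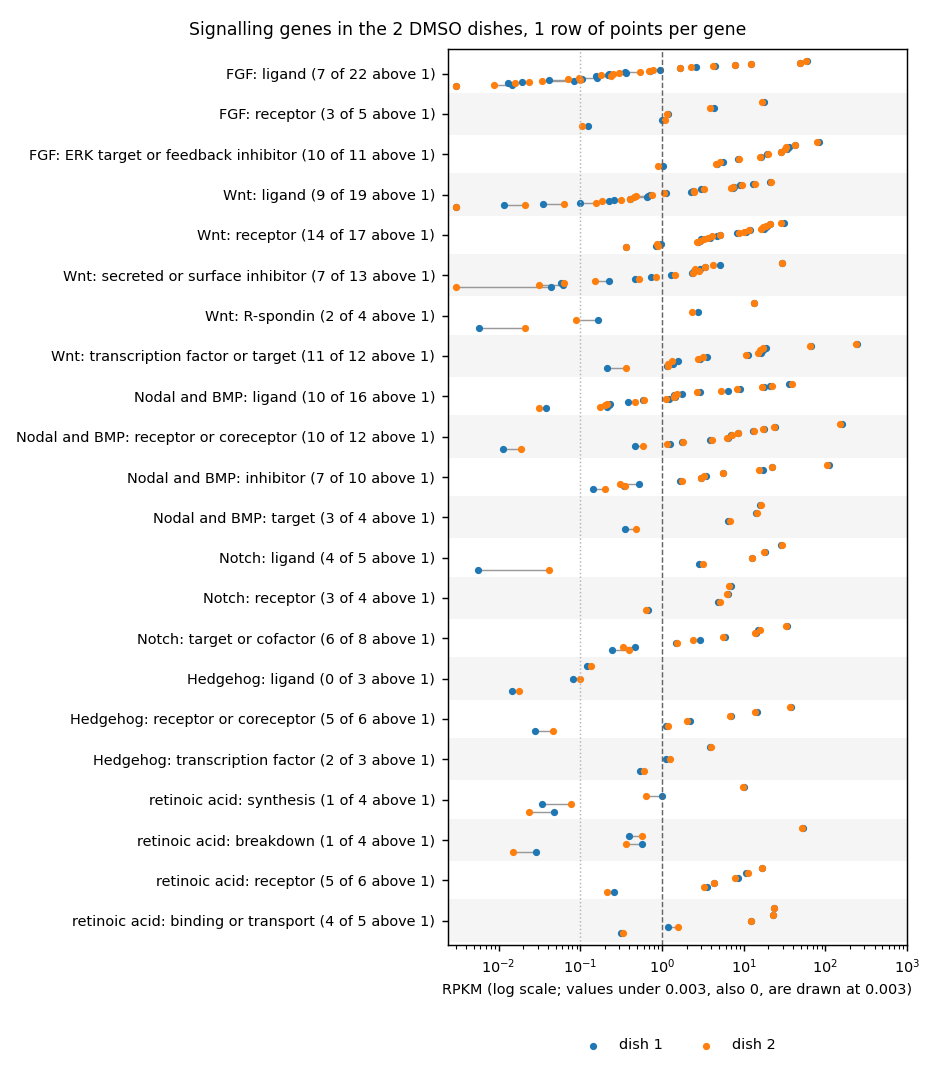
RPKM (log scale) of each signaling gene in dish 1 (blue) and dish 2 (orange), joined by a line, by pathway and role, with lines at an RPKM of 1 (dashed) and 0.1 (dotted). Receptors lie mostly above 1 in each pathway, as do 10 of 11 ERK targets, whereas ligands spread from 0 to 59.4 RPKM.

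Receptors of other growth factors were all expressed, 12 of 12, though at modest level. *Igf2r* led with 14.9 ± 0.132 RPKM, followed by *Pdgfra*, a marker of early mesoderm, with 9.59 ± 0.247, and *Lifr*, the receptor of the LIF on which ESCs are kept, still had 6.40 ± 0.0601. Ligands were expressed in 5 of 11 cases, and *Lif* itself had 0.614 ± 0.0107 RPKM. Genes of adhesion and of the change from epithelium to mesenchyme were almost all expressed, 21 of 22. The epithelial cadherin *Cdh1* had 65.3 and 61.9 RPKM and the mesenchymal and neural cadherin *Cdh2* 44.1 and 43.3, a ratio of 1.48 and 1.43. *Epcam* of epithelia had 69.9 and 70.2 RPKM and *Vim* of mesenchyme 125.4 and 120.0. Epithelial and mesenchymal genes were thus abundant in the same dishes, and whether in the same cells is not shown by RNA of whole dishes. *Snai1* was 38.1-fold and 41.7-fold above *Snai2*.

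Hox genes, which give position along the body axis and lie in 4 clusters in the order of that axis, were nearly all silent. Of 37 measured 3 were expressed. *Hoxb1* and *Hoxb2*, from the end of their cluster that is read in anterior tissue, had 4.59 and 3.40 RPKM and 2.50 and 2.12 RPKM. The dishes of these genes did not overlap. *Hoxb3* (0.484 ± 0.00996 RPKM), *Hoxa2* (0.299 ± 0.0669), *Hoxd13* (0.242 ± 0.0332) and *Hoxb9* (0.145 ± 0.0190) lay between 0.1 and 1, and the remaining 30 were silent. None of 9 HoxC and 7 HoxD genes was expressed, and *Hoxa6* and *Hoxa10* had no read, where 3 counts of *Hoxa10* would have given 0.0270 and 0.0328 RPKM. The level of *Hoxb1* fell by 0.43 on the log2 scale from dish 1 to dish 2, the widest gap among expressed Hox genes and wider than the 95th percentile of 0.265 for all genes with 50 or more counts in each dish.

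**Figure D4:**
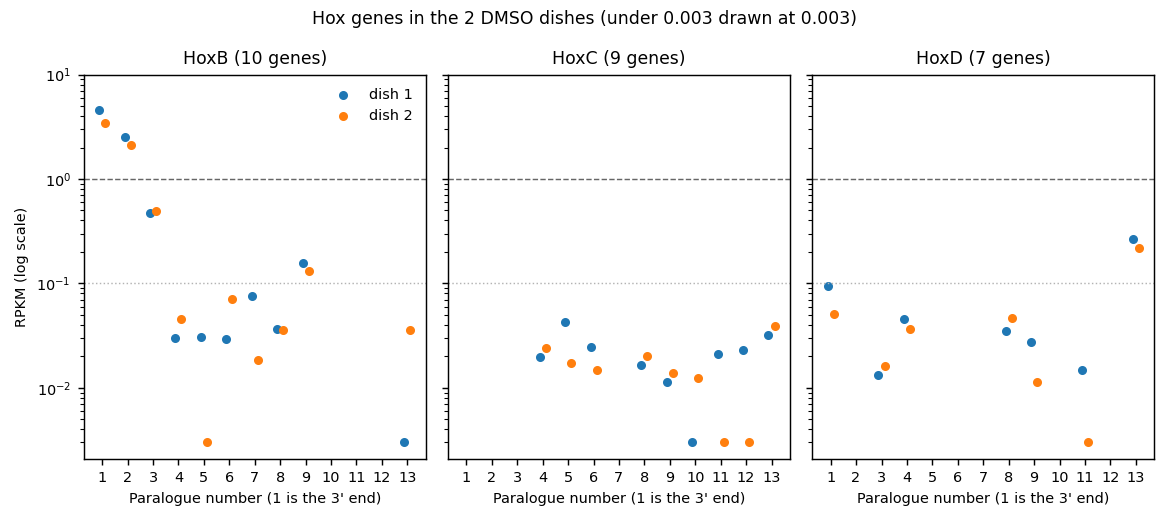
RPKM (log scale) of HoxB, HoxC and HoxD genes in dish 1 (blue) and dish 2 (orange) by paralog number, 1 panel per cluster, with lines at an RPKM of 1 (dashed) and 0.1 (dotted). *Hoxb1* and *Hoxb2* are the genes above 1 in these panels, and all 9 HoxC genes lie below 0.1.

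Axial genes outside the clusters were expressed in 11 of 18 cases. The partners of Hox proteins differed, with *Pbx2* at 20.5 ± 0.0489 RPKM, *Pbx3* at 14.2 ± 0.240, *Meis3* at 6.43 ± 0.0466 and *Meis1*, by contrast, at 0.290 ± 0.0307. *Gbx2*, which sets the posterior side of the border with *Otx2* in the neural plate, had 1.78 and 1.81 RPKM, so that *Otx2* was 16.1-fold and 15.1-fold higher by the sum of its transcripts, of which the highest averaged 15.6 RPKM. The hindbrain gene *Egr2* averaged 0.719 RPKM. *Gdf11*, a ligand of the trunk-to-tail switch, had 1.17 ± 0.0705 RPKM, and *Lin28b* had 23.2 ± 0.510, with *Lin28a* 10.1-fold above it in dish 1 and 10.2-fold in dish 2.

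Markers of differentiated tissues set the level of the silent side. Of 60 genes from muscle, neuron, liver, pancreas, skin, immune, red blood, germ, eye, lung, gut, kidney, cartilage and bone, fat and glial cells, 6 were expressed and 37 were silent, with a median of 0.0555 RPKM. The 6 were *Acta1* (8.49 ± 1.06 RPKM), *Sycp3* (7.10 ± 0.487), *Epor* (3.73 ± 0.0770), *Mbp* (1.54 ± 0.0623), *Snap25* (1.53 ± 0.187) and *Krt10* (1.22 ± 0.0762). *Acta1* encodes the actin of skeletal muscle and *Sycp3* a protein of meiotic chromosomes, and *Myod1* of muscle and *Stra8* of meiosis were silent. *Cd3e*, *Umod*, *Lep*, *Ptf1a* and *Tat* had no read in either dish. *Alb* had 1 and 2 counts and *Ptprc*, which all white blood cells carry, 0 and 2.

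Among the 145 members of transcription factor and related families that symbols name, 62 were expressed. The Sall genes (4 of 4) and Myc genes (3 of 3) were all expressed, whereas Pax genes (0 of 9) were not. Of 13 genes with Tbx symbols, which leaves out *T* and *Eomes*, *Tbx6* alone was expressed. After *Pou5f1*, *T* and *Lin28a* the next was *Foxh1*, the DNA-binding partner of Nodal signals, with 61.7 and 61.3 RPKM. *Sall4* had 46.6 ± 1.87 RPKM, *Sox4* 26.7 ± 0.256 and *Sox11* 22.9 ± 0.174, so that these Sox genes exceeded *Sox2* in both dishes.

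The most abundant coding gene of those measured was *Eef1a1*, the elongation factor of translation, with 6008 and 5918 RPKM. No gene with an mt symbol, of the mitochondrial genome, was among them. Ranks and shares here and above therefore leave out such RNAs. Of the 20 most abundant coding genes 13 were genes of ribosomal proteins, led by *Rplp1* (2695 and 2799 RPKM), *Rpl41* and *Rps12*. The 82 such genes took 22.7% and 23.3% of the summed RPKM of coding genes, but 8.35% and 8.59% of all estimated counts. Genes of this kind have near-identical copies elsewhere in the genome, among which the estimation may have divided reads. The remaining ones included the chaperone gene *Hspa8*, *Npm1* of the nucleolus, *Ptma*, *Ppia* and *Ftl1*. Among non-coding genes *Rpph1*, the RNA of RNase P, had 20511 and 21876 RPKM and *Rmrp* 13216 and 12322. *Rn45s*, the precursor of ribosomal RNA, had 4488 and 5076 RPKM and 3.21% and 3.64% of estimated counts although the libraries had been depleted of ribosomal RNA.

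The dishes were close for most genes. Over 12283 genes with 50 or more counts in each dish the median absolute log2 ratio was 0.0614, and 10 genes exceeded 1. Spread depended on level, here over genes with 10 or more counts in each dish. The median was 0.284 for silent genes, 0.208 between 0.1 and 1 RPKM, 0.0744 between 1 and 10, 0.0455 between 10 and 100, and 0.0421 above 100. Ratios among abundant genes above are therefore steadier between dishes than those that involve genes under 1 RPKM. Errors in comparing different genes that both dishes share, such as from the choice of transcripts, do not show in this spread. Set against sampling noise, the chi-square over 10430 genes with 1 transcript averaged 4.63 per gene with a median of 0.852, where sampling noise alone would give a median of 0.455. The dishes thus differed by more than the noise of their reads, and a few genes by much more. The files differ in depth and the dishes were counted as separate samples.

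**Figure D5:**
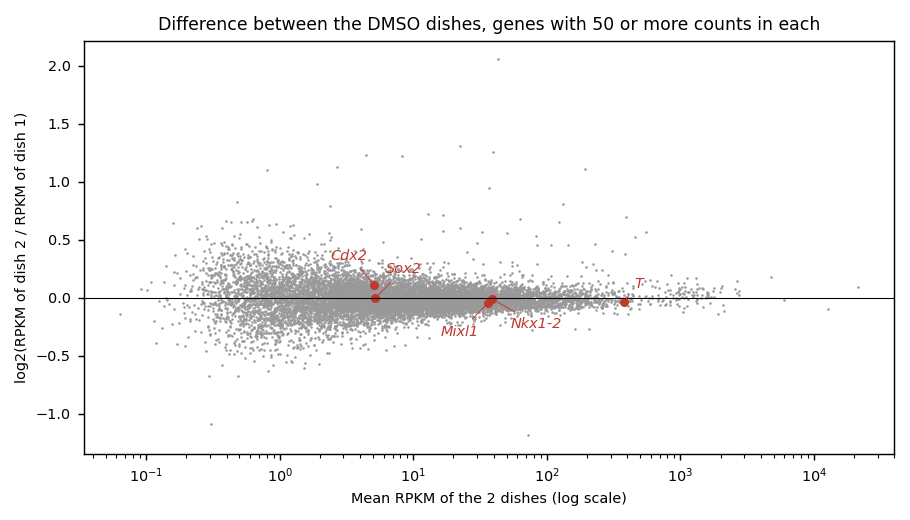
Log2 ratio of RPKM, dish 2 over dish 1 (vertical axis), against average RPKM (horizontal axis, log scale) of 12283 genes with 50 or more counts in each dish, each gene a gray point, with the NMP markers in red. The cloud narrows toward high RPKM, and all 5 markers lie within 0.112 of 0.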

How the data were processed

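Total RNA of the DMSO dishes was depleted of ribosomal RNA and sequenced as single-end reads. The authors aligned the reads with TopHat2 2.0.13 and Bowtie2 2.2.5.0 to mm10 and quantified 30352 RefSeq transcripts by expectation-maximization in Partek 6.6. The estimated counts were deposited without normalization. The RPKM that the authors derived from these scales each count by transcript length and a library total, implied to be 51499056 and 42301884 reads, so that the estimated counts (42029348 and 34341789) make up 81.6% and 81.2%.

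RPKM was summed per gene over its transcripts in Python 3.11.15 with pandas 2.3.3, numpy 2.4.6 and scipy 1.17.1, and plots used matplotlib 3.10.9. No groups were compared and no test between groups was made, and the dishes were set against sampling noise by a chi-square per gene. Samples were taken by their label, and the 4 RA files were not used. The summing of transcripts and the chi-square per gene were tested on simulated data. Members and gene lists were chosen with earlier results of these data known. Named genes are members of 26 lists (538 genes, of which 529 were analysed here), the 20 coding, 10 longer and 5 shorter (under 200 bases) non-coding genes with the highest RPKM, the 15 highest members of factor families, and the 10 genes that differed most between dishes. *Wnt1* and *Umod* were chosen for display with their levels known. Of the gene names 24 had become dates and 10 lie on 2 chromosomes, and none of these is named. Values of some listed genes are not reported here. Ends are given as the deposited position minus 1, which matched RefSeq for 8775 of 15164 genes.

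Start regions were matched by RefSeq gene ID for 15632 genes. Of coding genes outside chromosome 18, 80.9% had one, but under 80% of those below 1 RPKM and 69.6% of list genes, so that a comparison of start regions by level or list was void. Depth limits cover counting error only. Alternatives were other thresholds, the highest transcript, total counts as library size, a minimum of 10 counts, no short transcripts, and each dish alone.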

Additional observations from a re-analysis of the deposited data

How the results depend on the processing

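No paired analysis was possible because no groups were compared. With the total of the estimated counts as library size, all levels rise by 1.23-fold in both dishes, and averages became 461 RPKM for *T*, 48.0 for *Nkx1-2*, 44.2 for *Mixl1*, 6.39 for *Sox2* and 6.26 for *Cdx2*. With each dish alone the markers ranged from 370.3 to 380.1 RPKM for *T*, 38.9 to 39.3 for *Nkx1-2*, 35.4 to 36.6 for *Mixl1*, 5.20 to 5.21 for *Sox2* and 4.90 to 5.29 for *Cdx2*. The number of expressed genes lay between 9792 (threshold of 2) and 12154 (threshold of 0.5). Of the 234 list counts under alternatives, 229 were within 1.5 times the reported count. The others were the extraembryonic list with 8 genes at a threshold of 0.5 and 3 at 2, and 3 fibroblast, 3 differentiated tissue and 4 Hedgehog genes at 2. The 10 most abundant genes took 13.6% of summed RPKM and, ranked by counts, 8.54% of estimated counts. With the highest single transcript in place of the sum, 37 of 256 other expressed list genes were lower by over 1.5 times. Start regions without genes of several transcripts were void, since 79.9% of such genes had one. With 2 dishes the SDs are themselves imprecise, and levels near 0.1 RPKM rest on few counts.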

Other observations

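Imprinted genes, which are read from one parental copy, were expressed in 15 of 17 cases. The non-coding *Rian* had 111.7 and 110.0 RPKM, 3.96-fold and 3.83-fold above *Meg3* of the same cluster, whereas *Dlk1*, a coding gene there, had 0.428 and 0.423 RPKM. *Peg3* (68.6 and 69.2 RPKM) and *Impact* (69.8 and 67.8 RPKM) overlapped. *H19* had 9.27 and 10.6 RPKM and its neighbor *Igf2* 1.502 and 1.36, and *Plagl1* was below 1 in both dishes. The 4 listed genes of the Y chromosome were expressed, *Eif2s3y* with 33.6 ± 0.983 RPKM (SD, n = 2), *Ddx3y* with 17.2 ± 1.02, *Uty* with 8.68 ± 0.432 and *Kdm5d* with 1.78 ± 0.0596. *Xist*, which silences the X chromosome of female cells, and its antisense partner *Tsix* averaged 0.158 and 0.332 RPKM. Whether the counting used the strand of a read is not given in the sources used here, so that reads of this overlapping pair may not have been told apart.

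Transcripts of one gene were less steady than their sum. Of 77 expressed list genes with several transcripts, 13 had a leading transcript with over 90% of the gene, *Pou5f1* (99.2% and 99.5%) and *Sall4* among them, and 21 had none above 60%. For *Fgf8* the share of NM_010205 was 28.2% in dish 1 and 38.1% in dish 2 and that of NM_001166362 34.4% and 28.9%, so that the leading transcript changed from dish to dish, whereas the sum moved from 59.4 to 57.3 RPKM. The transcripts of *Fgfr1* kept their shares, with 54.3% and 55.2% for NM_010206 and 43.2% and 42.8% for NM_001079908.

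The genes that differed most between dishes were *Snora61* (16.6 and 69.0 RPKM), *Snora26* (12.9 and 32.0), *Snora68* (23.2 and 55.5), *Gm38431*, *Tmem38b* (4.92 and 11.5), *Lars2* (101 and 44.5), *Rsc1a1*, *Hist1h2bj* (121 and 263), *Cyyr1* and *Pakap*. The first 3 are small nucleolar RNAs of under 200 bases. *Lars2*, the mitochondrial leucyl-tRNA synthetase gene, had 20184 and 7300 counts, so that its difference exceeds counting error, and its cause was not tested. None of the 10 is a member of the gene lists above.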
